A study of Mus musculus with 6 samples.

Results

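Mast cell proteases and receptors were followed through 9 genes: Cpa3, Tpsab1, Tpsb2, Cma1, Mcpt4, Kit, Fcer1a, Ms4a2 and Hdc. Every probe set whose gene symbol in the authors' deposited table was exactly one of these names was taken, which gave 13 of the 45037 non-control probe sets. A probe set is a group of short array probes whose signals are summarised as 1 value. The genes were selected on earlier results of the same values and the same comparison, the difference between Bmp4 and control tumours, so the differences below are a description and test nothing about them.

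Mast cells are tissue-resident granulocytes of the blood lineage that mature in connective tissue and mucosa under the growth factor KITL, which binds the receptor KIT. Their granules hold carboxypeptidase A3, tryptases and chymases bound to heparin and serglycin, together with histamine made by histidine decarboxylase. Cross-linking of IgE on the receptor FcεRI releases these granules, and in mammary and skin connective tissue mast cells lie along vessels and at tumour edges.

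The samples were 6 whole primary tumours of 4T1.2, a metastatic subline of the 4T1 mouse mammary carcinoma, grown from 100000 inoculated cells in inguinal mammary fat pad 4 of female Balb/c mice aged 6 to 8 weeks. The 3 control tumours came from cells with the retroviral vector pBabepuro alone, and the 3 Bmp4 tumours from cells with pBabepuro holding murine Bmp4, whose product is a secreted bone morphogenetic protein. Tumours were taken at about 0.3 g, and the values are log2 expression per probe set, 1 array per tumour, listed below in the order of tumours 1 to 3 within each arm. The labels leave unsaid if any mouse gave more than 1 tumour, and whether the cells were clones or pools, so any spread is that between these tumours. Cancer and host cells were measured together, and fewer cells of a type and less RNA per cell cannot be told apart.

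The array of control tumour 1 stood apart, correlating across probe sets at r = 0.655 to 0.719 with the others, which correlated with each other at 0.959 or above. Probe sets are not independent replicates. Its interquartile range was 2.25, against 3.36 to 3.77. Control tumour 2 alone gave signal from the added poly-A control transcripts (9.81, against 4.11 to 4.6 elsewhere). The Actb 3' minus 5' difference, which grows as RNA is degraded, was 5.64, 4.18 and 2.62 in the control arm and 1.44, 2.32 and 2.33 in the Bmp4 arm. The same difference for Gapdh was 2.46, 5.31 and 3.93 and then 1.62, 3.13 and 2.42. Actb separated the groups and Gapdh did not. The mean signal of the hybridization control probe sets also separated them. It was 13.01, 11.23 and 10.66 in the control arm and 10.04, 10.04 and 10.3 in the Bmp4 arm. The part of RNA quality and of such array differences in the results below was not tested. Most comparisons are given both ways, with control tumour 1 and leaving it out. A difference between the groups given in 1 setting only is with all 6 arrays. Values against control tumour 3 alone leave out control tumour 2 as well.

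Cpa3, Tpsab1 and Cma1, all granule proteases, were brighter in the Bmp4 tumours than in control tumours 1 and 2, while control tumour 3 lay near or within the Bmp4 range. Cpa3, carboxypeptidase A3 of the mast cell granule, is measured by 1448730_at. It read 5.69, 4.92 and 7.11 in the control arm and 8.23, 7.26 and 8.24 in the Bmp4 arm. The lowest Bmp4 tumour was above the highest control, although only just (Bmp4 tumour 2 and control tumour 3). Control tumours averaged 5.91 ± 1.11 (SD, n = 3). Bmp4 tumours averaged 7.91 ± 0.56 (SD, n = 3), which is 2.0 ± 0.61 (SE) or 4.01-fold higher. Without control tumour 1 the difference was 1.89 ± 0.65 (SE), and against control tumour 3 alone it was 0.8. In the authors' deposited table its Bmp4-to-control ratio was 3.3, from arrays that neither its header nor the labels name. The adjusted p there, from the authors' analysis of variance, was 0.525.

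Tpsab1 encodes the tryptase known in mice as mMCP-7. Its probe set 1426175_a_at read 5.89, 5.11 and 7.83 in the control arm and 8.9, 7.84 and 8.8 in the Bmp4 arm. The groups did not overlap, but Bmp4 tumour 2 and control tumour 3 were level to the first decimal. The difference was 2.24 ± 0.73 (SE) or 4.73-fold with all 6 arrays, 2.05 ± 0.78 (SE) without control tumour 1, and 0.69 against control tumour 3 alone. The RefSeq annotation of GRCm38.p6, an assembly of the strain C57BL/6J, lists Tpsab1 (chromosome 17, 25343245 to 25345562) as a transcribed pseudogene. That strain is known to lack the mMCP-7 protein through a splice-site change, whereas the mice here were Balb/c.

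Tpsb2, the tryptase mMCP-6, lies beside Tpsab1 on chromosome 17 (25366308 to 25368096) and had a pair of probe sets that went opposite ways. The brighter one, 1422180_a_at, read 8.0, 5.93 and 7.42 in the control arm and 7.76, 7.64 and 7.85 in the Bmp4 arm. Control tumour 1 was the highest of the 6 and control tumour 2 the lowest, so the groups overlapped until control tumour 1 was left out. The difference was 0.63 ± 0.53 (SE) with all 6 arrays, 1.07 ± 0.41 (SE) without control tumour 1 and 0.33 against control tumour 3 alone. The dim probe set 1451802_at, at or below percentile 25.8 of its array outside control tumour 1, differed by -0.87 ± 0.51 (SE) and, without control tumour 1, by -0.3 ± 0.19 (SE). Its Bmp4 values of 3.78, 4.31 and 4.09 lay below its control values of 6.06, 4.38 and 4.34, narrowly so at the closest pair. The 2 tryptases are close relatives, and how far their probe sets share signal was not tested.

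The chymases Cma1 (mMCP-5) and Mcpt4 (mMCP-4), enzymes of connective-tissue mast cells encoded on chromosome 14, had overlapping groups. Cma1, by 1449456_a_at, read 6.1, 5.6 and 7.65 in the control arm and 7.5, 7.51 and 7.97 in the Bmp4 arm. Control tumour 3 lay among the Bmp4 tumours and the other 2 controls well below them. The difference was 1.2 ± 0.55 (SE), 1.03 ± 0.57 (SE) without control tumour 1, and 0.0 against control tumour 3 alone. Mcpt4, by 1425967_a_at, read 6.28, 5.19 and 6.18 in the control arm and 6.63, 6.27 and 6.09 in the Bmp4 arm. Control tumour 2 alone stood low. The difference was 0.44 ± 0.37 (SE), 0.64 ± 0.32 (SE) without control tumour 1, and 0.14 against control tumour 3 alone. With control tumour 1 kept and only control tumour 2 left out it was 0.09.

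In GRCm38.p6, Cpa3 spans bases 20215616 to 20242209 of chromosome 3, Cma1 bases 55941451 to 55944675 and Mcpt4 bases 56059744 to 56062310 of chromosome 14. Of the genes described below, Kit lies on chromosome 5 (75574987 to 75656722), Fcer1a on chromosome 1 (173221269 to 173227232), Ms4a2 on chromosome 19 (11615517 to 11623790) and Hdc on chromosome 2 (126593659 to 126624025).

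**Figure D1:**
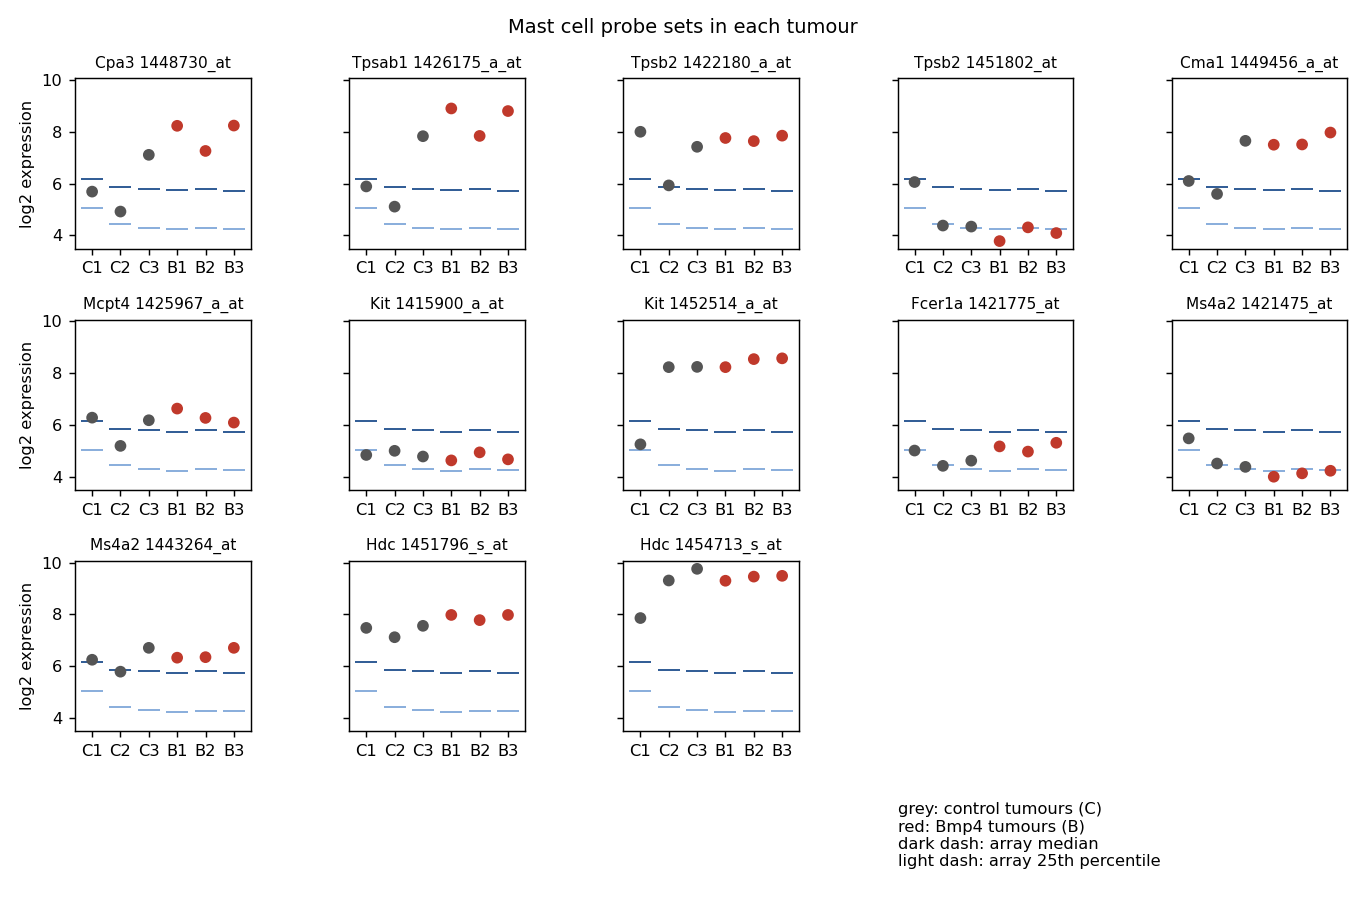
Log2 expression (vertical axis) of the 13 probe sets in control tumours 1 to 3 (C1 to C3, grey) and Bmp4 tumours 1 to 3 (B1 to B3, red), with dashes at each array's median and 25th percentile. Cpa3 reads 4.92 in control tumour 2 and 7.11 in control tumour 3, beside 7.26 to 8.24 in the Bmp4 tumours, and Kit 1452514_a_at is low in control tumour 1 alone.

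The promoters of Cpa3, Cma1 and Mcpt4 are shown because these protease genes all had their lowest value in control tumour 2 and because GATA factors are known regulators of mast cell genes. Sequences are from RefSeq (GRCm38.p6), run from 250 bases before to 50 after the start site of the RefSeq promoter table, 5′ to 3′ on the gene's own strand (the minus strand for all 3), and capitals mark a GATA word. The words searched on both strands were TGATAA or AGATAA, as well as TGATAG or AGATAG. Cpa3 lies at chr3:20242132-20242431, Cma1 at chr14:55944626-55944925 and Mcpt4 at chr14:56062261-56062560.
Cpa3: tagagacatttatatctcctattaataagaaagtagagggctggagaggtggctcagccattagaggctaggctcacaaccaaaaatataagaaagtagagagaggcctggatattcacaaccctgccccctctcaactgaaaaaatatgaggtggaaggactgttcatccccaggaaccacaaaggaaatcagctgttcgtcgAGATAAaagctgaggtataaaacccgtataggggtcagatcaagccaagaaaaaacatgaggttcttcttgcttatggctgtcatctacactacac
Cma1: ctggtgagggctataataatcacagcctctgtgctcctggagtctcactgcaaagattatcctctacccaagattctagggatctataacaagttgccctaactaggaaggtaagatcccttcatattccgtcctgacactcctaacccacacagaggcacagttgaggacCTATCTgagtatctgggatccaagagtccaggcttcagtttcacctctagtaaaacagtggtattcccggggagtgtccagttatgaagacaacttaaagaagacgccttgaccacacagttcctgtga
Mcpt4: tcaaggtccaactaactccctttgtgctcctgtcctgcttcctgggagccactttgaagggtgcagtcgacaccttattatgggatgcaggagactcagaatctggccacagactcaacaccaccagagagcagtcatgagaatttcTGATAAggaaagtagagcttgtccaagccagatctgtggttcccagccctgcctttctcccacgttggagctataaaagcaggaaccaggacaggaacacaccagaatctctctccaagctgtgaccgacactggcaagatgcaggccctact
That start site is the outer end of the annotated gene for Cma1 and Mcpt4, and lies slightly inside it for Cpa3. The word begins 46 bases before the start site in Cpa3, 79 in Cma1, where it lies on the opposite strand, and 103 in Mcpt4. Of the 7 genes with a promoter in the RefSeq table, 6 held such a word, Kit being the exception, while 29.8% of all 32851 promoters of the same length held one. For Hdc the whole window (126618629 to 126618928) lies inside the annotated gene (126593659 to 126624025). The start sites used for Ms4a2 and Fcer1a also lie inside their genes. The E-box words CATGTG and CACGTG, forms bound by MITF, a master regulator of mast cells and melanocytes, were found in 1 of the 7, Fcer1a, and in 20.4% of all promoters. A match is only a match of letters.

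Kit, the receptor for KITL, is also made by melanocytes, blood progenitors and mammary luminal progenitors. Its bright probe set 1452514_a_at read 5.25, 8.23 and 8.24 in the control arm and 8.23, 8.54 and 8.57 in the Bmp4 arm. Control tumour 1 was 2.99 below the highest control, and the other 5 tumours lay within a narrow band. The difference of 1.21 ± 0.82 (SE) therefore became 0.21 ± 0.16 (SE) without control tumour 1. The dim Kit probe set 1415900_a_at, between percentile 21.1 and 36.4 of each array, differed by -0.13 ± 0.23 (SE). That sign turned under other scalings of all 6 arrays, to 0.06 with arrays centred on their medians and 0.19 with quantile normalization.

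Fcer1a encodes the IgE-binding alpha chain of FcεRI, which defines mast cells and basophils. Its probe set 1421775_at was dim on every array, from percentile 24.3 to 43.5. It read 5.01, 4.42 and 4.62 in the control arm and 5.17, 4.97 and 5.31 in the Bmp4 arm. Only control tumour 1 overlapped the Bmp4 tumours, and only with Bmp4 tumour 2. The difference was 0.46 ± 0.26 (SE) with all 6 arrays, 0.63 ± 0.16 (SE) without control tumour 1 and 0.53 against control tumour 3 alone. Differences of dim probe sets are uncertain in size.

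Ms4a2, the signal-amplifying beta chain of FcεRI, had probe sets of opposite sign. The brighter, 1443264_at, read 6.25, 5.79 and 6.71 in the control arm and 6.33, 6.35 and 6.71 in the Bmp4 arm, with overlapping groups and a difference of 0.21 ± 0.31 (SE). Against control tumour 3 alone its sign turned, to -0.24. The dim one, 1421475_at, read 5.48, 4.51 and 4.38 in the control arm and 4.0, 4.13 and 4.23 in the Bmp4 arm, so every Bmp4 tumour lay below every control. It differed by -0.67 ± 0.35 (SE), and by -0.32 ± 0.15 (SE) without control tumour 1. All 3 of its Bmp4 values lay below the 25th percentile of their arrays.

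Hdc, histidine decarboxylase, makes histamine in mast cells and basophils and is also expressed by immature myeloid cells. Its probe set 1451796_s_at read 7.48, 7.12 and 7.56 in the control arm and 7.98, 7.78 and 7.98 in the Bmp4 arm. The groups did not overlap. The difference was 0.53 ± 0.24 (SE), 0.57 ± 0.18 (SE) without control tumour 1, and 0.36 against control tumour 3 alone. The brighter probe set 1454713_s_at read 7.86, 9.31 and 9.76 in the control arm and 9.3, 9.46 and 9.49 in the Bmp4 arm. Control tumour 1 stood low and control tumour 3 was the highest of the 6. Its difference of 0.44 ± 0.5 (SE) turned to -0.12 ± 0.18 (SE) without control tumour 1, and to -0.04 with quantile normalization of all 6 arrays. Against control tumour 3 alone it was -0.35. The suffix _s_at marks, in the array maker's naming, probes that may match more than 1 gene.

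Over the 13 probe sets, 10 had a higher mean in the Bmp4 tumours with all 6 arrays and 3 a lower one, with a median difference of 0.46. The same median over all 45037 probe sets was -0.2, with 38.0% higher. It was 0.33 over the 22519 probe sets above the median of mean signal, where 9 of the 13 lay, and 14284 of those 22519 were higher. Without control tumour 1 the members' median was 0.57, with 9 higher, against -0.06 over all probe sets, of which 41.2% were higher. Over the 22519 brighter probe sets it was then 0.04, with 11998 higher. Against control tumour 3 alone the members' median was 0.14, with 8 higher. By limma with Benjamini-Hochberg adjustment over all probe sets, 0 of the 13 passed adjusted p under 0.05 in either setting. The share of all probe sets called was 0.0% with all 6 arrays, and without control tumour 1 it was 0.00888%, made up of 0.00222% higher and 0.00666% lower. As this contrast chose the members, nothing is read from these counts. At an unadjusted p under 0.05, 2 of the 13 were higher with all 6 arrays (3.89% of all probe sets) and 5 without control tumour 1 (7.7% of all), and 0 were lower (1.81% and 5.72% of all).

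A difference of at least 1 was seen in 4 of the 13 with all 6 arrays (Cpa3, Tpsab1, Cma1 and Kit 1452514_a_at), as in 12.4% of all probe sets. It was seen in 4 without control tumour 1 (Cpa3, Tpsab1, Tpsb2 1422180_a_at and Cma1), as in 2.06% of all. A difference of -1 or below was seen in 0 of the 13, against 4.29% and 1.08% of all. The Bmp4 arm lay wholly above the control arm in 3 of the 13 (Cpa3, Tpsab1 and Hdc 1451796_s_at), where 10.6% of all probe sets did so. It lay wholly below in 2 of the 13 (Tpsb2 1451802_at and Ms4a2 1421475_at), where 14.9% did. Without control tumour 1 these became 5 of 13 against 14.0%, with Tpsb2 1422180_a_at and Fcer1a added, and 2 of 13 against 19.0%. For 1 value in 3 tumours a group, the smallest p of an exact two-sided permutation is 0.1.

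**Figure D2:**
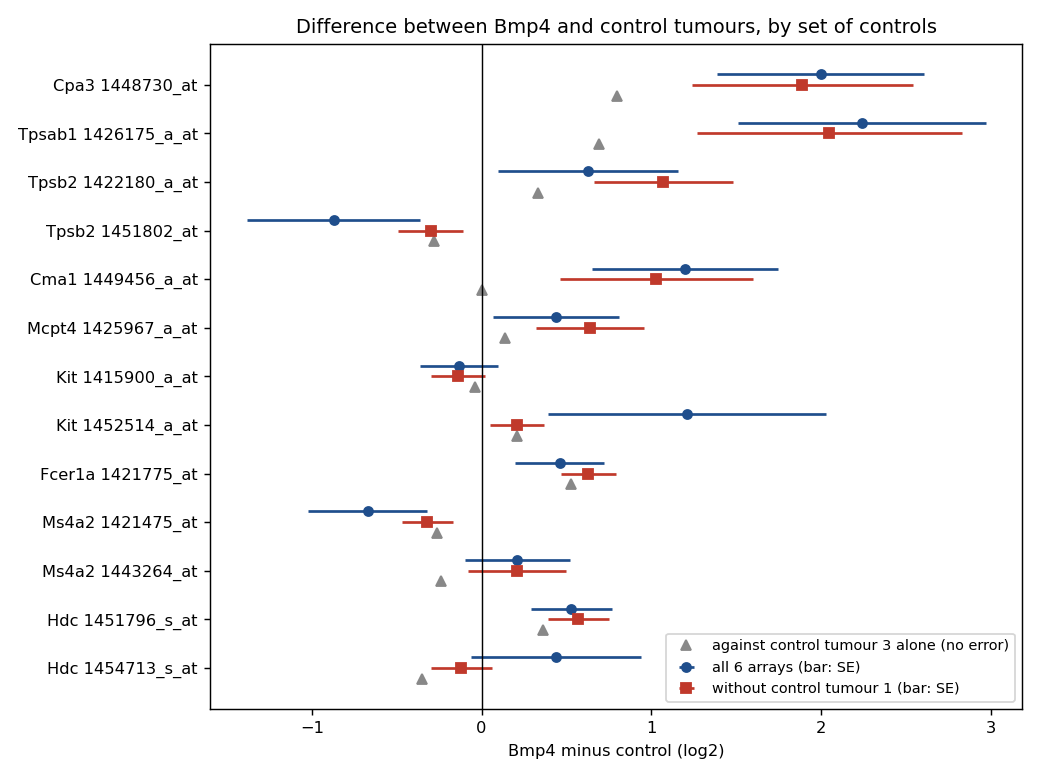
Bmp4 minus control (log2, horizontal axis) for each of the 13 probe sets, with all 6 arrays (blue circles), without control tumour 1 (red squares, bars SE in both) and against control tumour 3 alone (grey triangles, no error). Cpa3 goes from 2.0 to 0.8 and Cma1 from 1.2 to 0.0 when control tumour 3 is the only control, and Kit 1452514_a_at from 1.21 to 0.21 once control tumour 1 is left out.

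Control tumours 2 and 3 differed from each other in several proteases. Their gap uses values that also entered the choice of members, so it is a description. Control tumour 3 exceeded control tumour 2 by 2.72 in Tpsab1, 2.19 in Cpa3, 2.05 in Cma1 and 1.48 in Tpsb2 1422180_a_at. These are 4 of the 13 probe sets with a gap of at least 1, and 3.66% of all probe sets had such a gap in that direction. For Mcpt4 the gap was 1.0, just under that bound before rounding, and for Ms4a2 1443264_at it was 0.91. Control tumour 2 was the lowest of all 6 tumours in 8 of the 13 probe sets, as in 10.3% of all probe sets. Control tumour 1 was the lowest in 2 of the 13 and the highest in 3, against 31.0% and 52.8% of all. The gap was 0.0 for Kit 1452514_a_at and 0.2 for Fcer1a. The gap was larger in size than Bmp4 minus control (without control tumour 1) in 8 of the 13, near the 58.7% of all probe sets. Both quantities share control tumours 2 and 3, so they are set side by side and no relation is drawn from them. The range among the Bmp4 tumours was 0.98 in Cpa3, 1.06 in Tpsab1, 0.21 in Tpsb2 1422180_a_at and 0.47 in Cma1. It was 0.34 in Kit 1452514_a_at and in Fcer1a and 0.53 in Tpsb2 1451802_at, which in these probe sets was more than the gap between control tumours 2 and 3.

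**Figure D3:**
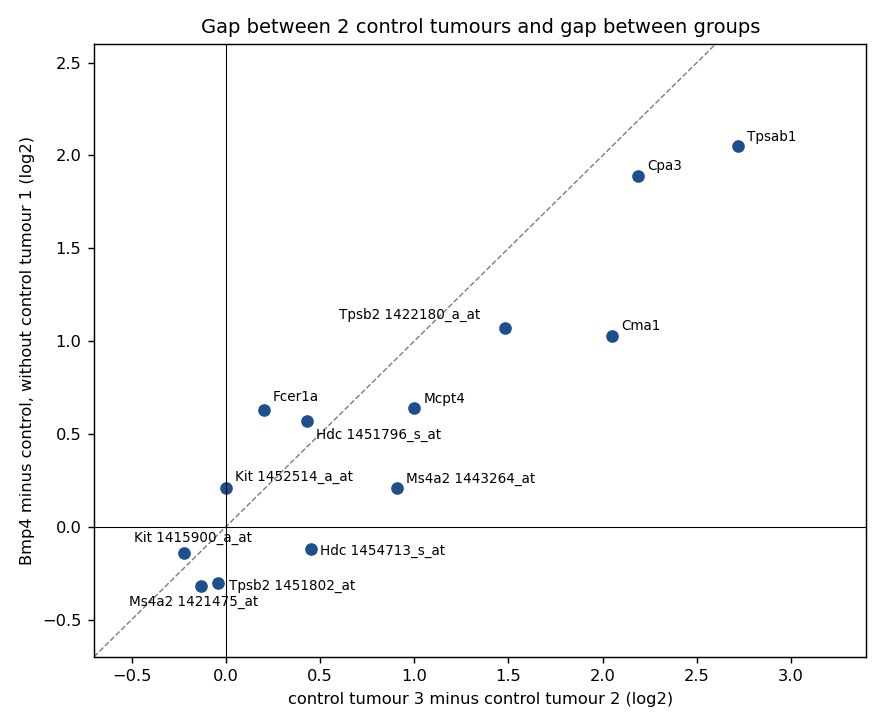
Control tumour 3 minus control tumour 2 (horizontal axis, log2) against Bmp4 minus control without control tumour 1 (vertical axis, log2) for the 13 probe sets, with the line of equality dashed. Tpsab1 (2.72 and 2.05) and Cpa3 (2.19 and 1.89) lie below the line, Fcer1a (0.2 and 0.63) above it, and the axes share both control tumours.

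Other genes of the mast cell programme were mixed and 0 passed the test. Of 16 measured genes of granules and mediators other than the members, 8 were higher (9 without control tumour 1), with medians of 0.03 and 0.15 beside -0.12 and -0.04 over all 20703 genes. Srgn, serglycin, which packs granule proteases and is made by many blood cells, read 9.95, 11.74 and 12.31 in the control arm and 12.67, 12.61 and 12.77 in the Bmp4 arm. Ndst2, which sulphates the heparin of mast cell granules, differed by 1.03 ± 0.41 (SE), and by 0.68 ± 0.28 (SE) without control tumour 1. Neither gene's groups overlapped. The Bmp4 arm lay wholly above the control arm in 3 of these 16 genes (4 without control tumour 1), and wholly below in 0. Of all 20703 genes, 2659 lay wholly above (3271 without control tumour 1) and 2822 wholly below (3784). Slc18a2, the vesicular monoamine transporter, lay at percentile 15.2 of mean signal, Tph1, which starts serotonin synthesis, at percentile 30.9, and Hpgds, which makes prostaglandin D2, at percentile 29.8. The mucosal mast cell proteases Mcpt1 and Mcpt2 were below the median, at percentiles 32.4 and 42.9, and differed by 0.35 and 0.21, then by -0.17 and 0.25 without control tumour 1.

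Of 14 measured mast cell surface molecules and regulators, 7 were higher (6 without control tumour 1), with medians of 0.03 and -0.03. On the brightest probe set of each gene, the Bmp4 arm lay wholly above the control arm in 3 of the 14 (5 without control tumour 1). It lay wholly below in 0, and 2659 of all 20703 genes lay wholly above (3271 without control tumour 1). Mrgprb1, of the family of mast cell receptors for basic secretagogues, differed by 0.66 ± 0.32 (SE) and 0.79 ± 0.28 (SE), with no overlap of the groups, at percentile 29.8 of mean signal. Mitf differed by 0.86 ± 0.3 (SE) and 0.67 ± 0.22 (SE) on its bright probe set, again with no overlap, and its dim probe set read lower in Bmp4 tumours (3.5 to 3.83, against 3.78 to 4.55 in controls). Gata2, a factor that mast cells require, went the other way on its bright probe set, by -0.3 ± 0.39 (SE) and -0.59 ± 0.29 (SE), with overlapping groups, and on its other probe set by -0.59 ± 0.28 (SE) and -0.42 ± 0.19 (SE) with none. Il1rl1, the receptor for IL-33, was bright at percentile 90.2 and differed by -0.08 ± 0.36 (SE) and -0.39 ± 0.22 (SE). Both Il1rl1 probe sets were highest in control tumour 2 (10.01 on the bright one and 8.78 on the other), the tumour lowest in Cpa3. These markers were bright in part and dim in part, which does not grade the mast cell label, since the brightness of a probe set depends on its probes as well as on the transcript.

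Growth factors and attractants of mast cells did not separate the groups as a list, with 10 of 15 higher and a median of 0.31, then 7 of 15 and -0.04 without control tumour 1. Kitl on its brightest probe set read 6.66, 11.88 and 10.97 in the control arm and 11.07, 11.32 and 11.53 in the Bmp4 arm. Control tumour 1 was again low, as it was for Kit, and control tumour 2, lowest in Cpa3, was the highest on this probe set. On another bright probe set Kitl was higher in every Bmp4 tumour (7.88 to 8.59) than in every control (7.5 to 7.65), by 0.57 ± 0.28 (SE), and its other probe sets gave differences of -0.32 and -0.26. Il33, an alarmin of stromal cells, differed by 0.98 ± 0.85 (SE), and by -0.04 ± 0.24 (SE) without control tumour 1. Il3 was dim in all tumours, at percentile 12.9. Among 14 measured genes of FcεRI signalling, 12 were higher and the median was 0.76, then 9 and 0.35. Fcer1g, the gamma chain shared with other Fc receptors and found in many myeloid cells, differed by 0.71 ± 0.33 (SE) and 0.62 ± 0.3 (SE). Syk, its kinase, differed by 0.9 ± 0.56 (SE) and 0.36 ± 0.35 (SE) on its brightest probe set, with overlapping groups. The other Syk probe sets gave 0.49, 0.08 and -0.58, then 0.66, 0.16 and -0.26. Of 9 histamine genes, Hdc included, 2 were higher (3 without control tumour 1).

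Markers of other cells that share these genes showed 0 calls. Over 10 basophil genes the median was -0.19, then -0.03, with list means of 6.16 to 6.4 in control and 6.2 to 6.4 in Bmp4 tumours. Mcpt8, the basophil protease, differed by -0.75 ± 0.42 (SE) and -0.34 ± 0.23 (SE), and Cd200r3 lay at percentile 13.4. The eosinophil marker Epx (percentile 19.3) and the melanocyte marker Tyr (percentile 21.4) were dim, and the luminal progenitor factor Elf5 lay at percentile 25.2. Median differences over the other lists, with all 6 arrays and then leaving out control tumour 1, were -0.04 and 0.24 for eosinophil, -0.53 and -0.15 for melanocyte, 0.08 and 0.06 for luminal progenitor and -0.28 and -0.14 for haematopoietic progenitor genes. They were -0.53 and -0.03 for skeletal muscle, -0.14 and 0.03 for skin, 0.75 and 0.01 for fibroblast, -0.07 and -0.47 for endothelial and -0.5 and -0.03 for neutrophil genes. Adipocyte genes, a sign of fat pad in the sample, had list means of 5.95 to 6.26 in control and 6.0 to 6.03 in Bmp4 tumours, although Adipoq alone, at percentile 20.5, differed by 0.6 ± 0.25 (SE).

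The means of the macrophage and T cell lists were higher in every Bmp4 tumour than in control tumours 1 and 2, also with 0 calls. The same held for the values of Cpa3, Tpsab1 and Cma1, but not for those of Mcpt4 or of either Tpsb2 probe set. The mean of 14 macrophage genes was 7.82, 8.02 and 10.08 in the control arm and 10.81, 10.19 and 9.94 in the Bmp4 arm, so control tumour 3 lay inside the Bmp4 range, as it did for Cma1. The mean of 11 T cell genes was 6.87, 6.55 and 7.54 and then 8.37, 8.24 and 8.35. The brightest probe sets of the 9 members averaged 6.26, 6.06 and 7.28 in control and 7.56, 7.31 and 7.67 in Bmp4 tumours. Of the macrophage genes 13 of 14 and of the T cell genes 10 of 11 were higher with all 6 arrays, with medians of 1.77 for both lists. Once control tumour 1 was left out, the counts were 14 of 14 and 10 of 11, and the medians 1.34 and 1.53. Among all 20703 genes, 9157 were higher in the first setting and 9147 in the second, with medians of -0.12 and -0.04. The part of macrophages and T cells, or of RNA quality, in the protease values was not tested.

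**Figure D4:**
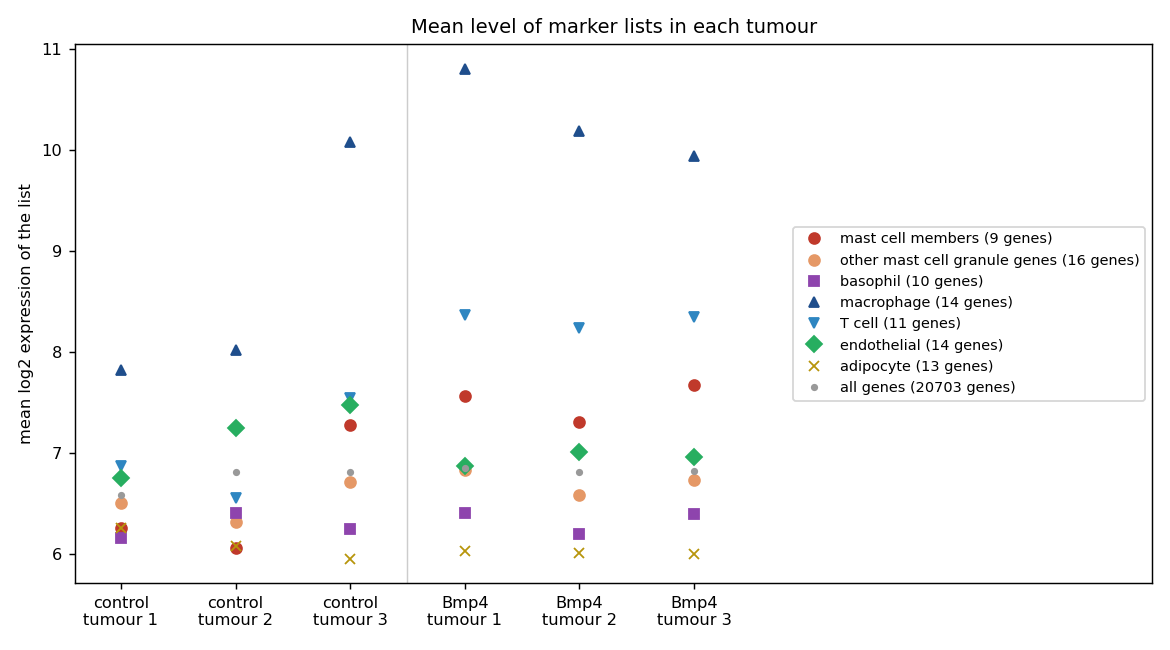
Mean log2 expression (vertical axis) of 7 marker lists and of all genes in each tumour, 1 point per list and array, with the vertical line between control and Bmp4 tumours. The members' mean is 6.06 in control tumour 2 and 7.28 in control tumour 3, beside 7.31 to 7.67 in Bmp4 tumours, and the macrophage mean goes from 8.02 to 10.08 between the same control tumours.

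The genes nearest to Cpa3 were found by the root mean square distance between log2 values centred on each gene's mean, over 6 tumours and among 10350 genes above the median of mean signal. A gene with the same level in every tumour would lie at 1.234. Tpsab1 was the nearest of all, at 0.214. Then came H2-Eb1, a class II antigen-presenting chain (0.33), Gtrgeo22 (0.334), Cd2, an adhesion receptor of T and NK cells (0.338), the myeloid receptor Cd300lb (0.367), Galm (0.37), Tnfsf11, which encodes RANKL (0.378), Sirpa, the myeloid receptor of CD47 (0.4), and the sialyltransferase St3gal4 (0.401). Cma1 was at rank 30 (0.496), while Tpsb2 was at rank 1451 (0.942), Hdc at rank 3435 (1.092) and Kit at rank 5469 (1.22). Kit thus lay about as far from Cpa3 as a gene with the same level in every tumour would. Mcpt4 (0.968), Fcer1a (1.027) and Ms4a2 (1.016) had no rank, as they were not above the median of mean signal over genes. Without control tumour 1, Arg1, arginase 1, came nearest (0.078), ahead of Tpsab1 (0.187). It was followed by Sla, H2-DMb1, Ptpn22, Cd48, Cd300lb, Trf and Skap1 (0.199 to 0.319). In that setting Cma1 was at rank 68 (0.527) and Tpsb2 at rank 87 (0.547), while Kit was at rank 4949 (1.155) and Hdc at rank 5716 (1.195). A gene with the same level in every tumour would lie at 1.212 there. Cd300lb was the only one of the 8 non-member genes named in both settings. These distances describe 6 or 5 arrays that share normalization and tissue.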

How the data were processed

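The data were 6 whole-tumour arrays, 3 control and 3 Bmp4, grouped by title. The authors deposited log2 values for each probe set. RMA and Partek 6.6 are named in the submitters' processing notes, and the arrays normalized together are not given in the sources used here. Per the file headers, the authors' deposited table holds for each probe set a ratio, p-values and scores (signed fold change, F, sums of squares) from an analysis of variance. Its symbols and ratios were used, and its adjusted p for Cpa3. The 64 control probe sets were left out, and the other 45037 were tested with limma 3.58.1 (lmFit, eBayes, two-sided) in R 4.3.3, Benjamini-Hochberg adjusted, with all 6 arrays and without control tumour 1. Dim probe sets were kept. The members, the 18 context lists (written from textbook knowledge; one holds Hdc) and the rule for named genes were chosen with earlier results of these data known. That rule took all member probe sets, a fixed set of mast cell, basophil and other marker genes, and the 8 genes nearest to Cpa3. List values use 1 probe set a gene, the brightest. List genes not matched by symbol or synonym were not analysed here. Scripts were tested on simulated data. Alternatives were another normalization or centring, a filter, gene-level values, eBayes options, a replicate block, a stricter threshold and omission of tumours. The number of arrays limits the precision.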

Additional observations from a re-analysis of the deposited data

How the results depend on the processing

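The 13 probe sets held 0 calls under every alternative run, in both settings. With all 6 arrays, leaving out 1 tumour at a time gave 0 to 1 probe sets called higher and 0 to 3 lower over the whole array, the 1 and 3 coming without control tumour 1. The members' median then ranged from 0.33 to 0.61, and 9 to 10 of 13 were higher. Without control tumour 1, where 1 probe set was called higher and 3 lower, one brightest probe set a gene gave 4 genes higher and 0 lower, and averaging the probe sets of each gene 5 and 1. Quantile normalization gave 3 higher, and adjusted p under 0.01 gave 0 higher. Leaving out a further tumour gave 0 higher and 0 to 2 lower, with members' medians of 0.14 (without control tumour 2) to 0.73 (without control tumour 3). Where this left 1 control, it was assumed to vary like the Bmp4 tumours. Tumour number as a replicate block gave 0 called with all 6 arrays, with a members' median of 0.46, and 0 higher and 0 lower without control tumour 1, with a median of 0.49. Deviations of same-numbered tumours from their group means correlated at -0.134, -0.219 and -0.043 for tumours 1 to 3. These values cannot decide if the numbers pair the tumours, as the outlying control tumour 1 enters the control mean. Of the 8 genes nearest to Cpa3 with all 6 arrays, 1 stayed without control tumour 1. Fewer arrays or genes enter some of these fits; otherwise the cause was not tested. Among single member probe sets, 5 moved by more than the replicate SD against control tumour 3 alone, 3 under quantile normalization and 2 under median centring with all 6 arrays.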
